A study of Homo sapiens with 6 samples.

Results

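The transcription termination site (TTS) is the annotated 3' end of a gene. The deposited metagene table sums ChIP-seq signal over genes at 6000 positions around this site, 3000 on the gene side and 3000 downstream, and all 6000 are described here, out of 12000 positions in the table and 15000 metagene positions and bins in the series. They were taken by the table's own region label, with no use of the measured values. The chromatin came from MRC5, a wild-type human lung fibroblast cell line that all groups share, with no treatment named. There were 6 libraries: 2 from ChIP with an antibody to NuMA (also called TDIF), 2 from ChIP with IgG, an antibody of no defined target, 1 input of the NuMA arm and 1 input of the IgG arm, input being sheared chromatin without pull-down. The pull-down was made to map NuMA along the genome. The values are sums over an unnamed set of genes, so no single gene, strand or sequence can be read from them, and no sequence is printed. The tables hold no expression values with which the cell line label could be checked. The labels do not say that replicates came from separate cultures, so the spread between them may be technical.

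NuMA is a large nuclear protein that gathers microtubule minus ends at the spindle poles in mitosis and is part of the nuclear scaffold between divisions. At the end of a gene, RNA polymerase II transcribes through the poly(A) signal, the transcript is cleaved and polyadenylated, and the polymerase continues for some distance before it leaves the DNA. Around poly(A) sites the DNA is typically rich in A and T and poor in nucleosomes, while exons and gene bodies are richer in G and C. Sheared chromatin and sequencing libraries can have a shape of their own around such sites, which the inputs measure.

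Signal at a position ranged from 14465 to 29119 in the NuMA libraries and from 25417 to 39828 in the others, and these values were not scaled for depth by the authors. Each library was therefore divided by the mean of its outermost 500 positions at both ends, which is called relative signal here. Changes of signal from one position to the next were most negatively correlated at a distance of exactly 150 positions in all 6 libraries (r from -0.41 to -0.31, with the next most negative value at -0.08 to -0.05), which is the pattern that reads covering 150 positions give. On that reading each library held 709185 to 1334367 read equivalents around termination sites, and 500 positions held at least 52605. If each were an independent read counted once, the counting error would be at most 0.436%. The file gives no bin size, so the text speaks of positions. Any 2 features closer than 150 positions are blurred into each other. IgG replicate 2 had the flattest profile of the 6 libraries, with its highest and lowest relative signal 0.156 apart against 0.248 to 0.538 in the others. Some of the results are also given without it, but not every result that it moves.

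All 6 libraries shared one outline. Signal climbed through the last part of the gene, declined steeply just before the termination site, reached a trough at or near it, recovered within about 300 positions and then stayed nearly level to the downstream end. The libraries differed in where the climb ended, how deep the trough was and how much higher the gene side stood than the downstream side. Pearson's r over the 6000 positions, which are neighbours in shared reads and not replicates, was 0.989 for the pair of NuMA libraries, 0.910 for the IgG pair and 0.978 for the input pair. Across the groups it was 0.378 to 0.733 between NuMA and IgG libraries and 0.824 to 0.913 between NuMA libraries and inputs.

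**Figure D1:**
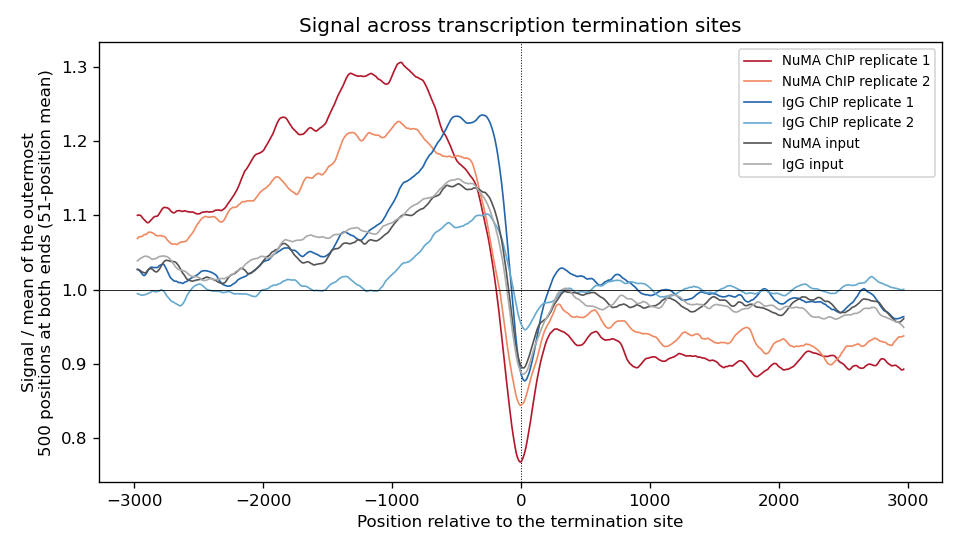
Relative signal (running mean of 51 positions, y axis, scaled to the outermost 500 positions at both ends) against position relative to the termination site (x axis), 1 line per library. The NuMA lines peak at positions -929 and -948, the IgG lines at -299 and -265 and the input lines at -486 and -489, and all 6 have a trough at the site.

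The gene side stood highest over the downstream side in NuMA ChIP. Relative to the outermost 500 downstream positions, the outermost 500 upstream positions held 1.23 and 1.15 times the signal in NuMA replicates 1 and 2. IgG replicates 1 and 2 had ratios of 1.04 and 0.986, the NuMA input 1.05 and the IgG input 1.07. NuMA ChIP thus lay above the inputs in each library and IgG ChIP below them, and in IgG replicate 2 the gene side was no higher than the downstream side. Group means were 1.19 ± 0.053 for NuMA and 1.01 ± 0.040 for IgG (SD, n = 2 each), a log2 difference of 0.23, which exceeds the spread within either group. The exact two-sided permutation test gave p = 0.333, the smallest value that 2 libraries against 2 can give, so none of the comparisons made here can pass a threshold of 0.05. This ratio needs no scaling to flanks, and over single-library omissions the difference stayed between 0.18 and 0.28. The groups did not overlap, so no omission could reverse its direction.

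NuMA signal was highest well inside the gene. Its summit lay at positions -929 and -948 in replicates 1 and 2, against -299 and -265 for IgG; input chromatin peaked between them, at -486 (NuMA arm) and -489 (IgG arm). The 3 kinds of library did not overlap, and the NuMA mean lay at -938.5 ± 13.4 and the IgG mean at -282 ± 24.0 (SD, n = 2 each; difference -656.5, exact p = 0.333). The NuMA summit was broad and uneven: relative signal was within 0.02 of the maximum at 431 positions between -1350 and -804 in replicate 1, and at 492 positions between -1363 and -765 in replicate 2, with gaps. In IgG replicates 1 and 2 such positions lay between -583 and -221 (363 positions, unbroken) and between -620 and -178 (443, unbroken). Those of the inputs lay between -690 and -240 (NuMA arm) and between -658 and -309 (IgG arm). The last such NuMA position therefore came before the first such IgG position. Division by own input gives a curve of another shape, on which the summits of the groups differed by -1200.5.

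Summit height separated the groups less than summit position did. It reached 1.31 and 1.23 times the flanks in NuMA replicates 1 and 2. IgG replicates 1 and 2 reached 1.24 and 1.10, and input chromatin 1.14 (NuMA arm) and 1.15 (IgG arm). NuMA replicate 2 lay below IgG replicate 1, so the ChIP groups overlapped (1.27 ± 0.056 against 1.17 ± 0.094, SD, n = 2 each, log2 difference 0.12, exact p = 0.667). The size of this difference rests on the denominator: it was 0.01 when libraries were scaled to the upstream end alone and 0.24 when they were scaled to the downstream end alone. Without IgG replicate 2 it was 0.04, and without IgG replicate 1 it was 0.20.

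In windows of 500 positions, NuMA ChIP climbed and declined farther inside the gene than IgG ChIP. Over positions -3000 to -2501 relative signal was 1.10 and 1.07 for NuMA replicates 1 and 2 but 1.02 and 0.993 for IgG. From -1500 to -1001 the NuMA values were 1.28 and 1.20, the IgG values 1.08 and 1.01 and the input values 1.06 and 1.08. This was the window of the widest gap between the ChIP groups, a log2 difference of 0.25 (1.24 ± 0.054 against 1.04 ± 0.049, SD, n = 2 each).

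Closer to the site the order turned. In the window from -1000 to -501 NuMA ChIP still lay above, at 1.26 and 1.20 against IgG values of 1.17 and 1.06, a log2 difference of 0.14. Scaled to the upstream end alone the groups overlapped there, with NuMA at 1.14 and 1.12 and IgG at 1.15 and 1.07. In the last 500 positions of the gene NuMA ChIP lay below, at 1.02 and 1.05 against 1.16 and 1.07, a log2 difference of -0.10. It also lay below both inputs there (1.08 and 1.07), but this order depends on the flank. Scaled to the downstream end alone, NuMA ChIP lay at 1.14 and 1.13 in this window, above both inputs (1.11 each). It then lay between the IgG libraries, at 1.18 and 1.06. At position -300 itself, near the IgG summits, running relative signal was 1.11 and 1.12 for NuMA and 1.24 and 1.10 for IgG, so the groups overlapped there.

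Downstream of the site the profiles were nearly flat. Over positions 500 to 999 NuMA replicates 1 and 2 had relative signal of 0.922 and 0.954, each IgG library 1.01, and the inputs 0.983 and 0.982. Over positions 2000 to 2499 NuMA stood at 0.906 and 0.919 while IgG stood at 0.981 and 0.999. Positions 1000 to 1999 held 1.005 and 1.004 times the signal of the outermost 500 downstream positions in NuMA replicates 1 and 2. The IgG libraries gave 1.01 and 0.991, and the inputs 1.01 and 1.02. At these positions no library held more than 1.02 times its downstream end, and the ChIP groups differed by 0.003 (log2), less than their spread (exact p = 1).

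Position by position, NuMA replicates 1 and 2 both exceeded both IgG libraries at 2327 of the 6000 termination-site positions, a single unbroken stretch from position -3000 to -674. Over the whole table of start and termination sites this held for 55.3% of positions, and at the start site alone for 71.9%. On this scaling to both ends, a share of 38.8% at the termination site was thus below the background. They were both lower than both IgG libraries at 3272 positions (54.5%), from -272 to the downstream end, against 30.4% in the whole table and 6.22% at the start site. Between -673 and -273 the groups overlapped. Neighbouring positions share reads, so these counts describe stretches and are not independent tests.

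Whether NuMA ChIP lay below IgG ChIP after the site depended on the scaling. Scaled to the downstream end alone, NuMA ChIP lay above both IgG libraries at 3199 positions and below both at 398, in place of 3272. The log2 difference over the 500 positions after the site was then 0.03 and over the 500 before it 0.02, in place of -0.09 and -0.10, and the window from -1500 to -1001 still showed 0.37. Scaled to the upstream end alone, 1616 positions lay above and 3506 below, and the same window showed 0.14. Shares over the whole table were counted on both ends only, so the counts on a single end have no background beside them. A change of flank shifts the log2 difference by the same amount at every position, so its shape could not differ between these scalings. Its highest signed value lay from -1500 to -1001, and it changed little after the site. On the upstream end the negative differences after -500 were larger in size, down to -0.23.

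**Figure D2:**
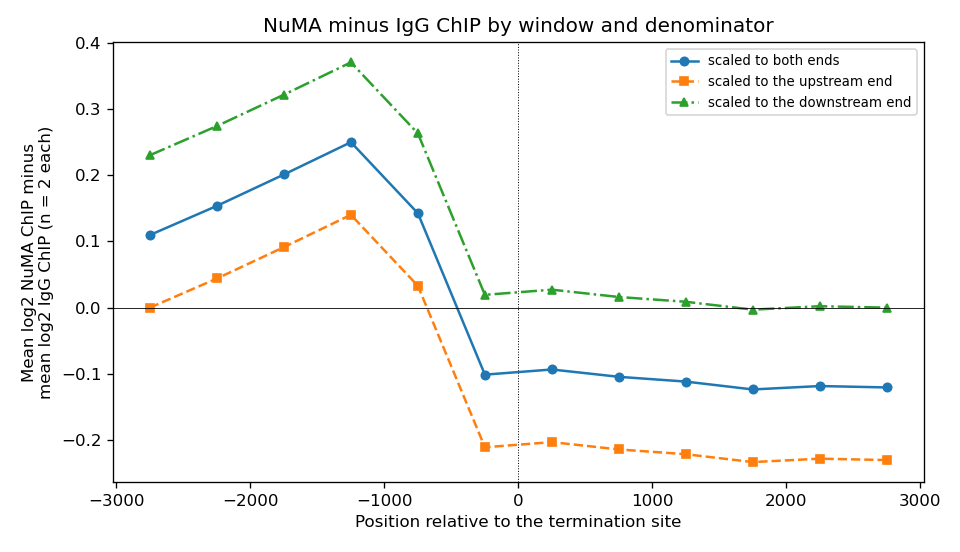
Mean log2 relative signal of NuMA ChIP minus that of IgG ChIP (y axis, n = 2 libraries each) in windows of 500 positions (x axis, window centre), for 3 choices of denominator. The lines are shifted copies of each other: each has its highest signed value in the window from -1500 to -1001 (0.25 with both ends, 0.37 with the downstream end, 0.14 with the upstream end) and level after the site.

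The decline toward the site was more drawn out in NuMA ChIP. Running signal first reached the midpoint between summit and downstream end at positions -293 and -249 in NuMA replicates 1 and 2. This point lay at -127 and -126 for IgG, at -141 for the NuMA input and at -161 for the IgG input. The NuMA libraries came first, the inputs next and the IgG libraries last, without overlap (NuMA -271 ± 31.1, IgG -126.5 ± 0.71, SD, n = 2 each, exact p = 0.333). The steepest point of the decline, measured over 100 positions, followed the same order, with a narrow margin between IgG and input: NuMA had it at -127 and -122, IgG at -89 and -71, and input chromatin at -93 and -90, so IgG replicate 1 lay within 4 positions of them. Division by own input gives a curve of another shape, on which the steepest points differed by -319.5 in place of -44.5. That value need not describe the same decline.

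**Figure D3:**
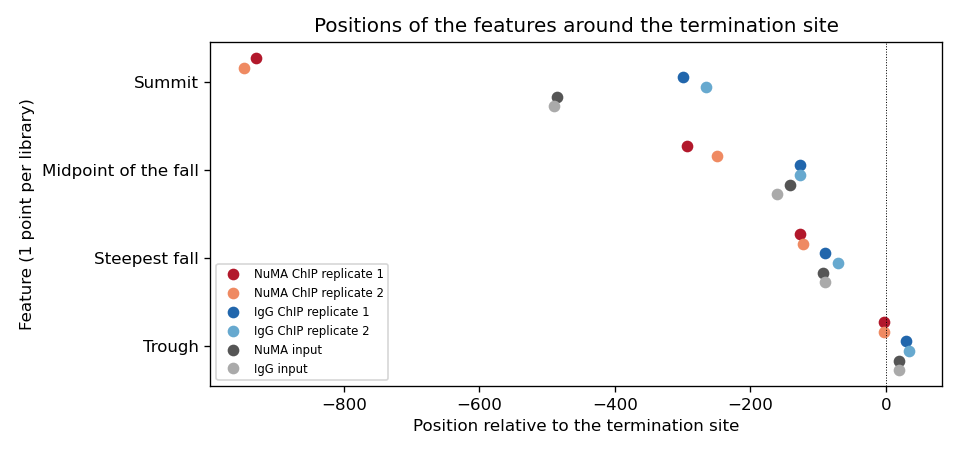
Position of 4 features relative to the termination site (x axis), 1 point per library. For the summit, the midpoint of the decline, its steepest point and the trough, both NuMA points lie to the left of both IgG points, and the difference of the means shrinks from -656.5 at the summit to -35 at the trough.

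The trough lay at position -3 in both NuMA libraries, at 30 and 34 in IgG replicates 1 and 2, at 20 in the NuMA input and at 19 in the IgG input. These offsets are smaller than the 150 positions that 1 read covers, yet libraries of a kind lay within 4 positions of each other. The difference of the group means, -35, turned to 152 when each library was divided by its own input. That division gives a curve of another shape, on which IgG replicate 2 stood highest at -28, so 152 need not describe the same trough. At its lowest, relative signal was 0.768 and 0.844 for NuMA, 0.877 and 0.946 for IgG, 0.895 for the NuMA input and 0.886 for the IgG input. Scaled to both ends, NuMA replicates 1 and 2 were lower than the other 4 libraries, at 0.806 ± 0.054 against 0.912 ± 0.049 in IgG ChIP (SD, n = 2 each, log2 difference -0.18, exact p = 0.333). This separation depends on the flank: scaled to the downstream end alone, the troughs were at 0.855 and 0.909 for NuMA and at 0.896 and 0.939 for IgG, so the groups overlapped (log2 difference -0.06, exact p = 0.667). Without NuMA replicate 1 the difference on both ends was -0.11, and without IgG replicate 2 it was -0.12. Chromatin without pull-down thus had a trough of its own at the site, and the NuMA trough went below it.

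A measure of the dip that needs no flank compares the 50 positions on each side of the site with the next stretch out, from 250 to 500 positions away. It came to 0.747 and 0.801 for NuMA, 0.796 and 0.917 for IgG, and 0.849 and 0.839 for input. IgG replicate 1 lay just below NuMA replicate 2, so by this measure the groups overlapped (0.774 ± 0.038 against 0.856 ± 0.086, SD, n = 2 each, log2 difference -0.14, exact p = 0.667). Leaving out IgG replicate 2 brought it to -0.04 and leaving out IgG replicate 1 to -0.25. The outer stretch before the site holds the IgG summits (-299 and -265) and the input summits (-486 and -489). The NuMA summits (-929 and -948) lie outside it, and what this adds to the overlap was not tested. From summit to trough the signal changed by factors of 1.70 and 1.45 for NuMA, 1.41 and 1.16 for IgG, and 1.28 and 1.30 for input. NuMA replicate 1 had the widest swing and IgG replicate 2 the narrowest. Without IgG replicate 2 the log2 difference in this swing was 0.16 in place of 0.30.

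**Figure D4:**
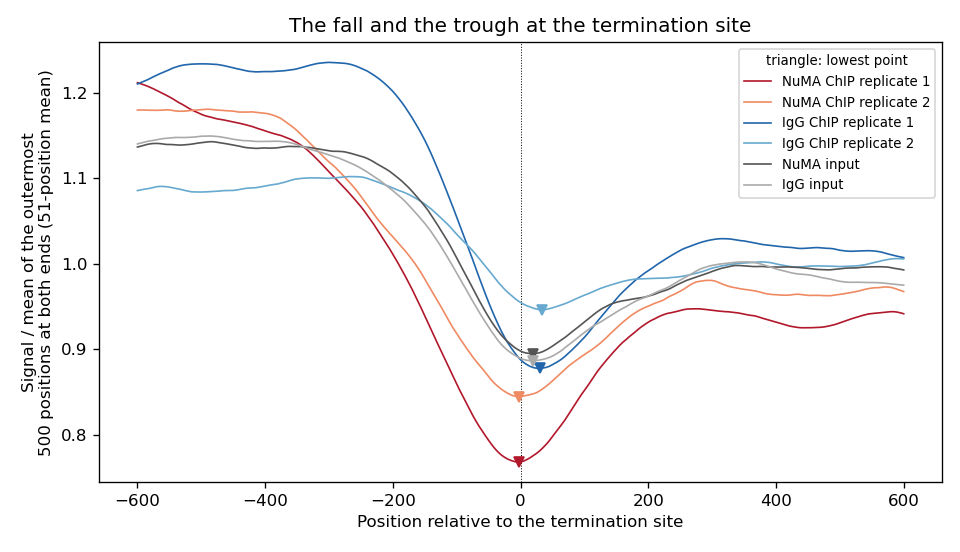
Relative signal (running mean of 51 positions, y axis) within 600 positions of the termination site (x axis), 1 line per library, with a triangle at the lowest point. The NuMA troughs sit at position -3 with relative signal 0.768 and 0.844, and the IgG and input troughs sit at positions 19 to 34 with relative signal 0.877 to 0.946.

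Past the trough, signal recovered to a low shoulder before it levelled off. Positions 250 to 749 held 1.04 and 1.03 times the signal of positions 1000 to 1999 in NuMA replicates 1 and 2. The IgG libraries held 1.03 and 1.003 times and each input 1.01 times. The shoulder was highest in NuMA ChIP (1.036 ± 0.0023 against 1.014 ± 0.015, SD, n = 2 each, log2 difference 0.03, exact p = 0.333). Its excess over IgG replicate 1 was small, and without IgG replicate 2 the difference was 0.02.

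The ratio of the 500 positions before the site to the 500 after it hides these differences. NuMA replicates 1 and 2 had 1.13 and 1.12, the IgG libraries 1.18 and 1.09 and each input 1.12, and the ChIP groups differed by -0.01 (log2, exact p = 1). With 250 positions each side the difference was -0.09, and with 1000 each side it was 0.13, the wider window taking in the broad NuMA summit. In the other metagene table, which divides exons into 1000 bins, the last 100 exon bins held 1.07 and 1.08 times the first 100 downstream bins for NuMA, 1.13 and 1.07 times for IgG and 1.09 times for each input (log2 difference -0.04, exact p = 1). That table is no independent check: each of its downstream bins spans 2.5 of the positions used here, with values that differ by a root mean square of 0.0637% to 0.0943%.

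Set against the input of its own arm, each ChIP group left the input shape at a different place. NuMA ChIP stood highest over its input at positions -1322 and -1323 in replicates 1 and 2, by 0.28 and 0.19 (log2), and lowest at -41 and -109, by -0.24 and -0.13. IgG replicate 1 stood highest over its input at -216, by 0.15, and IgG replicate 2 at -28, by 0.11. The IgG maxima and the NuMA minima thus all lay within 300 positions before the site, but not at the same positions. At the site itself IgG replicate 1 stood at -0.003 over its input and IgG replicate 2 at 0.10. NuMA ChIP exceeded both inputs in each library at 2658 termination-site positions (44.3%, against 55% of the whole table) and below both at 3305 (55.1%, against 34.9%). For IgG ChIP the counts were 2342 above (39.0%, against 20.4%) and 757 below (12.6%, against 45.3%). These counts rest on the scaling. On the downstream end alone they were 3594 above and 1004 below for NuMA ChIP and 70 above and 1524 below for IgG ChIP. On the upstream end alone they were 1989 and 3723 for NuMA ChIP and 3411 and 162 for IgG ChIP. The share over the whole table was counted on both ends only, so the counts on a single end have no background. The IgG libraries also differed from each other on the gene side, where replicate 1 was 0.07 above its input (log2) from -1000 to -501 and replicate 2 was -0.08 from it.

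**Figure D5:**
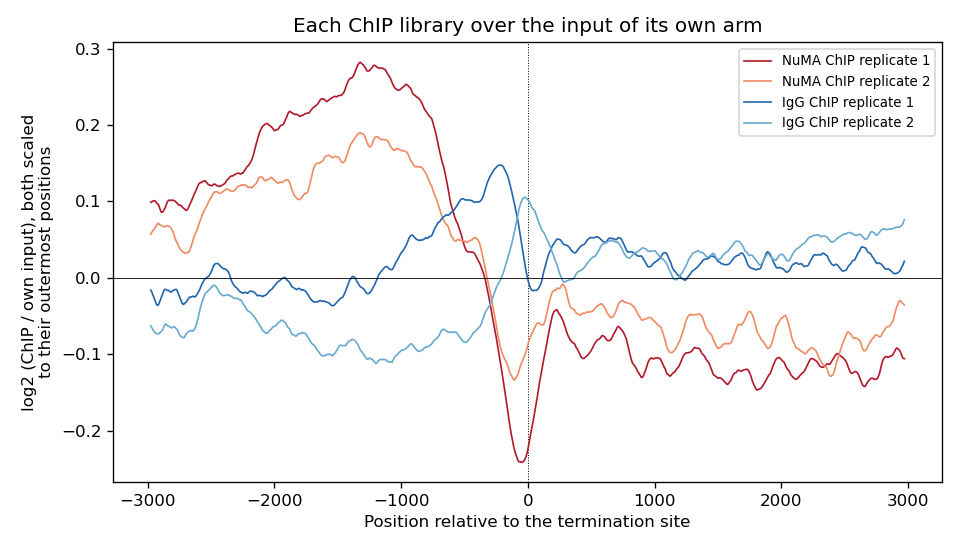
log2 of each ChIP library over the input of its own arm (y axis, both scaled to their outermost positions, running mean of 51 positions) against position relative to the termination site (x axis). The NuMA lines are highest near position -1322 (0.28 and 0.19) and reach their lowest values (-0.24 and -0.13) at positions -41 and -109; IgG replicate 1 is highest at -216 (0.15) and IgG replicate 2 at -28 (0.11).

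The termination-site profile was shallow beside that of the start site, taken from the same table in the same way. At the start site the summit reached 2.79 and 2.23 times the flanks in NuMA replicates 1 and 2. IgG reached 1.51 and 1.14, the NuMA input 1.56 and the IgG input 1.58. The termination-site summit was 0.468 and 0.549 of the start-site summit for NuMA, 0.820 and 0.966 of it for IgG, and 0.733 and 0.728 of it for input. NuMA ChIP thus showed the greatest contrast between the ends of the gene and IgG ChIP the least (log2 difference -0.81, exact p = 0.333), and the difference stayed between -0.93 and -0.61 over 13 alternatives. In the 500 positions after the site, NuMA ChIP exceeded IgG ChIP by a log2 difference of 0.90 at the start site and lay at -0.09 at the termination site. Within 500 positions of the start site the lowest running mean was 1.60 and 1.40 times the flanks in NuMA replicates 1 and 2. IgG replicates 1 and 2 had 1.06 and 0.941, and input chromatin 1.17 (NuMA arm) and 1.21 (IgG arm). Only IgG replicate 2 thus fell below its flanks. The minima of both NuMA libraries, IgG replicate 1 and both inputs lay at the edge of this range, position -500. For these libraries the measure cannot decide whether there was a local dip nearer the start site. The IgG replicate 2 minimum lay inside the range, but close to the same edge.

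Start sites of genes also fall among these positions, and their spacing was counted in RefSeq (GRCh38.p14) for 19081 of 20052 protein-coding genes, reading 1 position as 1 bp. The gene's own start lay within 3000 bp of its end in 9.28% of genes. By window, own starts numbered 1.97 per 100 gene ends from -1000 to -501, the most of any window, 1.59 to 1.77 in the windows farther upstream and 0.519 in the last 500 bp. Starts of other genes numbered 0.325 to 0.419 per 100 gene ends in each 500 bp window before the site and 1.45 to 1.60 in each window after it. Ends of other genes were most frequent in the first 500 bp after the site, at 8.47 per 100. The genes summed by the authors may be another set, and the part of own start sites in the broad NuMA summit was not tested.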

How the data were processed

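The submitters' processing notes list the build hg38 and the tools featureCounts, MACS2, bedtools and BWA (0.7.17-r1188), with no role for any. Per the file headers, the deposited metagene values are signal with no normalization. Read extension, duplicate removal and the genes summed are not given in the sources used here. The deposited promoter counts (366594 to 1080879 per library) served only for depth and gene strands.

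Each library was divided by the mean of its outermost 500 positions at both ends. Position 0 is the first after the site. Summits, and troughs within 500 positions of the site, were read from a running mean of 51 positions. NuMA and IgG ChIP were compared on log2 ratios or positions by an exact two-sided permutation test over 6 permutations; the inputs entered no test. No p was adjusted over the 16 measures, since none can fall below 0.333. Measures and alternatives were chosen with earlier results of these data known, and 5 measures (trough depth and position, steepest point, shoulder, summit over trough) and the counts of positions were added after the profiles were seen. By rule the text names 12 windows, the summit, the trough and the midpoint of the decline, and no gene. Alternatives were other flanks, windows and running means, each ChIP library left out, a replicate block, division by own input and pooled libraries. On 20 simulated profiles with a single smooth summit, summits were found within 44 positions and troughs within 7. The NuMA summits were broad and uneven, so this error does not carry over to them. RefSeq strands came from the promoter sequence table (15841 genes) or else from a start-site window within 1000 bp; where both were known 99.8% were the same. Python 3.11.15, numpy 2.4.6, scipy 1.17.1 and pandas 2.3.3 were used.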

Additional observations from a re-analysis of the deposited data

Results flagged for a closer look

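Against the input of their own arm, both NuMA libraries and both IgG libraries moved in opposite directions in 7 measures. The difference between the arms was not tested, and each input is a single library. The ratio of the upstream to the downstream end was 0.17 (log2) above input in NuMA ChIP and -0.08 in IgG ChIP, 0.26 apart. The level over the 500 positions after the site was -0.07 and 0.03, which is -0.10 apart and depends on the flank used. The summit lay -452.5 positions from that of input in NuMA ChIP and 207 in IgG ChIP, -659.5 apart. For the midpoint of the decline the shifts were -130 and 34.5, -164.5 apart, and for its steepest point -31.5 and 10, -41.5 apart, with IgG replicate 1 only 1 position from its input. The trough was shifted by -23 and 13 positions, -36 apart. The height of the termination-site summit over the start-site summit differed from input by -0.53 and 0.29 (log2), -0.82 apart.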

How the results depend on the processing

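Of 161 alternative values for the 16 measures, 152 kept the direction of NuMA ChIP against IgG ChIP and 9 reversed it. The 152 include 16 values of the replicate block, which repeat the main values and could not differ. With 2 libraries against 2, no call could be gained or lost. The step at the site (-0.0078, log2) became 0.125 with 1000 positions each side and was -0.066 (without IgG replicate 2) to 0.051 (without IgG replicate 1) over omissions. The level before the site became 0.019 on the downstream flank alone and 0.026 with 1000 positions, and the level after the site 0.027 on the downstream flank. The downstream zone (0.0029) became -0.0098 with an outer window of 250 positions and was -0.014 (without IgG replicate 2) to 0.019 (without IgG replicate 1). The exon end step was -0.076 to 0.0054 over the same omissions. Trough position changed from -35 to 152 when each library was divided by its own input, and the cause was not tested. Over its own input, IgG replicate 2 stood highest at position -28, by 0.11 (log2). The value of 152 therefore need not describe the same trough. On the downstream flank 398 positions lay below IgG ChIP in place of 3272. The remaining planned measures, 6 of 11, and 4 of 5 added ones kept 1 direction in every alternative run for them. The ChIP groups did not overlap in 6 planned measures (not the same 6) and in all 5 added ones. In these, leaving out 1 library could not reverse the direction, so the omissions are no check of direction there. Same-numbered NuMA and IgG libraries deviated together (r = 0.63 over positions), but 2 numbers do not establish pairs. The replicate block averages the differences between same-numbered libraries, which by arithmetic equals the difference of group means. It therefore could not reverse any of the 16 measures and is no check of direction (smallest possible exact p = 0.5). Counting error would be at most 0.436% per 500 positions if each read equivalent were an independent read counted once. Duplicate removal and the genes summed are not given, so the true error can be larger. Whether depth or the number of libraries limits precision more was not tested.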
